A study of Mus musculus with 16 samples.

Results

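The uptake receptors Cubn, Amn and Lrp2, their adaptor Dab2, and the secreted carriers Afp, Ttr, Apoe, Apoa1 and Rbp4 are genes by which visceral endoderm is usually recognised. They were chosen by name, with earlier results of these data known. All 25 probe sets annotated to 1 of them alone were read from an array table of 45101 probe sets. The 9 genes stand among 18193 genes with a probe set of their own. The arrays came from mouse embryonic stem (ES) cells of a 129/B6 hybrid background, in which 4-hydroxytamoxifen (OHT) removes Rybp, a subunit of variant Polycomb repressive complex 1. Cells called KO received OHT at 800 nM for 24 hours, and control cells of the same clones received none. The 4 groups are KO at day 12, control at day 12, KO at day 4 and control at day 4, each with 4 arrays. In each group clone 10 and clone 15 have 2 arrays, with replicate numbers 1 and 2. Every control is the untreated state of the same conditional clones, and none received OHT. Rybp loss therefore cannot be told apart from any action of the drug itself or of the recombinase it switches on. The labels give no separate origin for the 2 replicates of a clone, so p-values measure the spread between arrays, which may be technical. The medium held serum and leukaemia inhibitory factor, and the cells lay on fibroblast feeders or on gelatin. The labels do not say which surface an array came from.

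Visceral endoderm is the epithelium that covers the early mouse embryo and feeds it before the placenta works. It takes up proteins and vitamins at its outer surface by endocytosis through cubilin (Cubn), a large receptor without a membrane anchor of its own, which amnionless (Amn) carries to the membrane. Megalin (Lrp2), a giant receptor of the LDL receptor family, works beside them, and Dab2 couples these receptors to clathrin. The same cells secrete carriers: alpha-fetoprotein (Afp), the albumin-like protein of fetal blood, transthyretin (Ttr), which moves thyroid hormone, retinol-binding protein (Rbp4), and the lipid carriers Apoe and Apoa1. Dab2 is also made by parietal endoderm, the sister layer that lays down Reichert's membrane, and both layers descend from primitive endoderm.

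The start regions of genes that moved together on the arrays are shown to compare their CpG content and their matches to binding motifs of endoderm factors. RefSeq windows of 250 bases before to 50 bases after the start (build GRCm38.p6) were matched here for 8 of the 9 genes, all but Ttr, giving 12 windows. Motifs were searched on both strands: AGATAA and TGATAA for GATA factors, TGTTTAC and TGTTTGC for FOXA factors, CAAAGTCCA for HNF4, the HNF1 palindrome, CATTGTT for SOX factors and the TATA box TATAAA. The windows below are Lrp2 at chr2:69585980-69586279 on the minus strand, Amn at chr12:111270846-111271145 on the plus strand, and the first of 2 starts of Dab2 at chr15:6299539-6299838 on the plus strand. Afp follows at chr5:90490464-90490763 and Apoa1 at chr9:46228380-46228679, both on the plus strand. Each reads 5′ to 3′ along its gene, and capitals mark motif matches, which for the reverse strand read as the reverse complement.
Lrp2: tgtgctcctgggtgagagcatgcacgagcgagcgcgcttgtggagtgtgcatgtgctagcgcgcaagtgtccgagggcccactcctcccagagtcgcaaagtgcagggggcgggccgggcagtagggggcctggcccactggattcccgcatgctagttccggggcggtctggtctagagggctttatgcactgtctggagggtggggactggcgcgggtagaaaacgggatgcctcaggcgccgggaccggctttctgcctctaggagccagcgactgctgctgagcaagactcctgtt
Amn: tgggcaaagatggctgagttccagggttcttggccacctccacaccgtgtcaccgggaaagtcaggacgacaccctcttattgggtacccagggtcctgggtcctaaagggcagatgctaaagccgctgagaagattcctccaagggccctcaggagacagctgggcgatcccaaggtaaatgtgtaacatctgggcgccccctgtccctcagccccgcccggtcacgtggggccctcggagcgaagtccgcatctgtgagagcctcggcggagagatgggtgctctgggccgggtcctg
Dab2 first start: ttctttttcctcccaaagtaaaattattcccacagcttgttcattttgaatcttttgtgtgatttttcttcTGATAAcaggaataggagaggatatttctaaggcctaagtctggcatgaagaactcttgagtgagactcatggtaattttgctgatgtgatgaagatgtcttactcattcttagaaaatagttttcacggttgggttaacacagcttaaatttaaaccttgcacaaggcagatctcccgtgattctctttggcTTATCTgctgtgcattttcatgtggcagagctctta
Afp: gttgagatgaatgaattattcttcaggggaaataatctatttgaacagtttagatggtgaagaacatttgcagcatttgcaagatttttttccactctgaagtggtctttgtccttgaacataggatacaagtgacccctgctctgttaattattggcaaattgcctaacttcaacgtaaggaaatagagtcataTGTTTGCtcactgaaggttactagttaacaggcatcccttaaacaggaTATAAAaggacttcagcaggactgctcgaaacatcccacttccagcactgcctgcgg
Apoa1: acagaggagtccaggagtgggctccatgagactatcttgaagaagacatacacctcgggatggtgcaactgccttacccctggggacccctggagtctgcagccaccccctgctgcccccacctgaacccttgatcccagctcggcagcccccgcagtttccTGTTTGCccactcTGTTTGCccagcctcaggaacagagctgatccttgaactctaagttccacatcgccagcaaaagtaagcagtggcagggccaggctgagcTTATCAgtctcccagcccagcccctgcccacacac

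The 5 windows were chosen from the 12 and do not stand for all of them. The Lrp2 window holds 20 CpG and the Amn window 15, against a median of 7 over 32841 RefSeq windows, and neither holds a match. The Dab2 window holds 2 CpG, the Afp window 3 and the Apoa1 window 4. The second Dab2 start, at chr15:6386498-6386797, holds 19 CpG and no match. Cubn has 1 window with 5 CpG, the 3 of Apoe have 10 to 12, and the 2 of Rbp4 have 5 and 40, so both receptors and carriers have windows on each side of the median. Dab2 has TGATAA at -179 and AGATAA on the reverse strand at 14, counted from the start. Afp has TGTTTGC at -55 and TATAAA at -7, and Apoa1 has it at -88 and -75 with TGATAA on the reverse strand at 15. Across all windows TGATAA is found in 9.05%, AGATAA in 11.2%, TGTTTGC in 5.07% and TATAAA in 13.6%. A match is a description of letters and not a bound site, and the start that each clone used was not measured.

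Probe set 1421111_at, annotated to Rybp and its pseudogene, read 109 to 256 in the 4 KO arrays at day 12 and 84.9 to 125 in those of day 4, against 2749 to 3434 in control arrays at day 12 and 2047 to 3319 at day 4. A second set, 1428219_at, read higher in every KO array than in every control array of the same day. Its log2 differences of 2.95 ± 0.74 (SE) at day 12 (limma adjusted p = 0.0518) and 2.82 ± 0.74 at day 4 (limma adjusted p = 0.154) missed the threshold of 0.05. In control arrays of both days it read 1404 to 2771 in clone 10 and 157 to 297 in clone 15. The position of either set relative to the deleted part is not known here. The 12 ES cell markers were bright in every group, with a summed intensity of 115660.0 to 134497 in KO and 124362 to 148733 in control arrays at day 12, and 129374 to 139450.0 in KO and 128414 to 141362 in control arrays at day 4. Markers of feeder fibroblasts summed to 1432 to 3352 over all arrays, and 0 of 13 passed the limma test in any comparison between the groups, with at most 2 at an unadjusted p under 0.05. Of these 13, the group means of 2 lay under the 25th percentile of intensity (28.3) in KO and in control arrays at day 12 and in KO arrays at day 4, and of 0 in control arrays at day 4. The arrays were normalized together to 1 distribution, with a median intensity of 93.3. In such bulk RNA more cells with a transcript and more transcript per cell cannot be told apart.

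Most of these genes were higher at day 12 than at day 4 in both KO and control cells, and the 2 receptors Amn and Lrp2 were higher in KO than in control cells at day 12. A call means a limma adjusted p under 0.05, adjusted over all genes. In KO cells 8 of the 9 genes were higher at day 12, where 2.24% of all genes were, and all 9 had every array of day 12 above every array of day 4, as 6.94% of all genes had. In control cells 6 of the 9 were higher at day 12, where 0.654% of all genes were, and 8 of the 9 had no overlap between the days in that direction, as 4.46% had. In KO against control cells 2 of the 9 were higher at day 12, where 2.19% of all genes were, and 0 of the 9 at day 4, where 0.566% were. Every KO array was above every control array for 3 of the 9 at day 12, as for 7.41% of all genes, and for 1 of the 9 at day 4, as for 3.49%. At an unadjusted p under 0.05 there were 2 of the 9 at day 4, where 8.54% of all genes passed, and the same count at day 12, where 14.8% did. Over time 8 of the 9 were reached at that level in KO cells, against 15.8% of all genes, and 8 in control cells, against 13.9%. None of the 9 was lower in any of these comparisons, whose background of lower genes was 1.03% and 0.341% over time in KO and control cells, and 0.901% and 0.0605% for KO against control at day 12 and day 4. Each day holds only 2 replicate numbers, whose arrays deviate together. With day and replicate number as a random block, an alternative chosen after seeing the data, 7 of the 9 were higher over time in KO and 4 in control cells, with 242 of all genes called in KO and 56 in control cells in place of 595 and 181. The comparisons share arrays and are not independent of each other. The 9 genes were chosen with earlier results of these data known, so the counts beside the shares of all genes are a description and not a test of the list. The plot of intensity by array shows every value of the probe set that stands for each gene, which is the one with the highest mean.

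**Figure D1:**
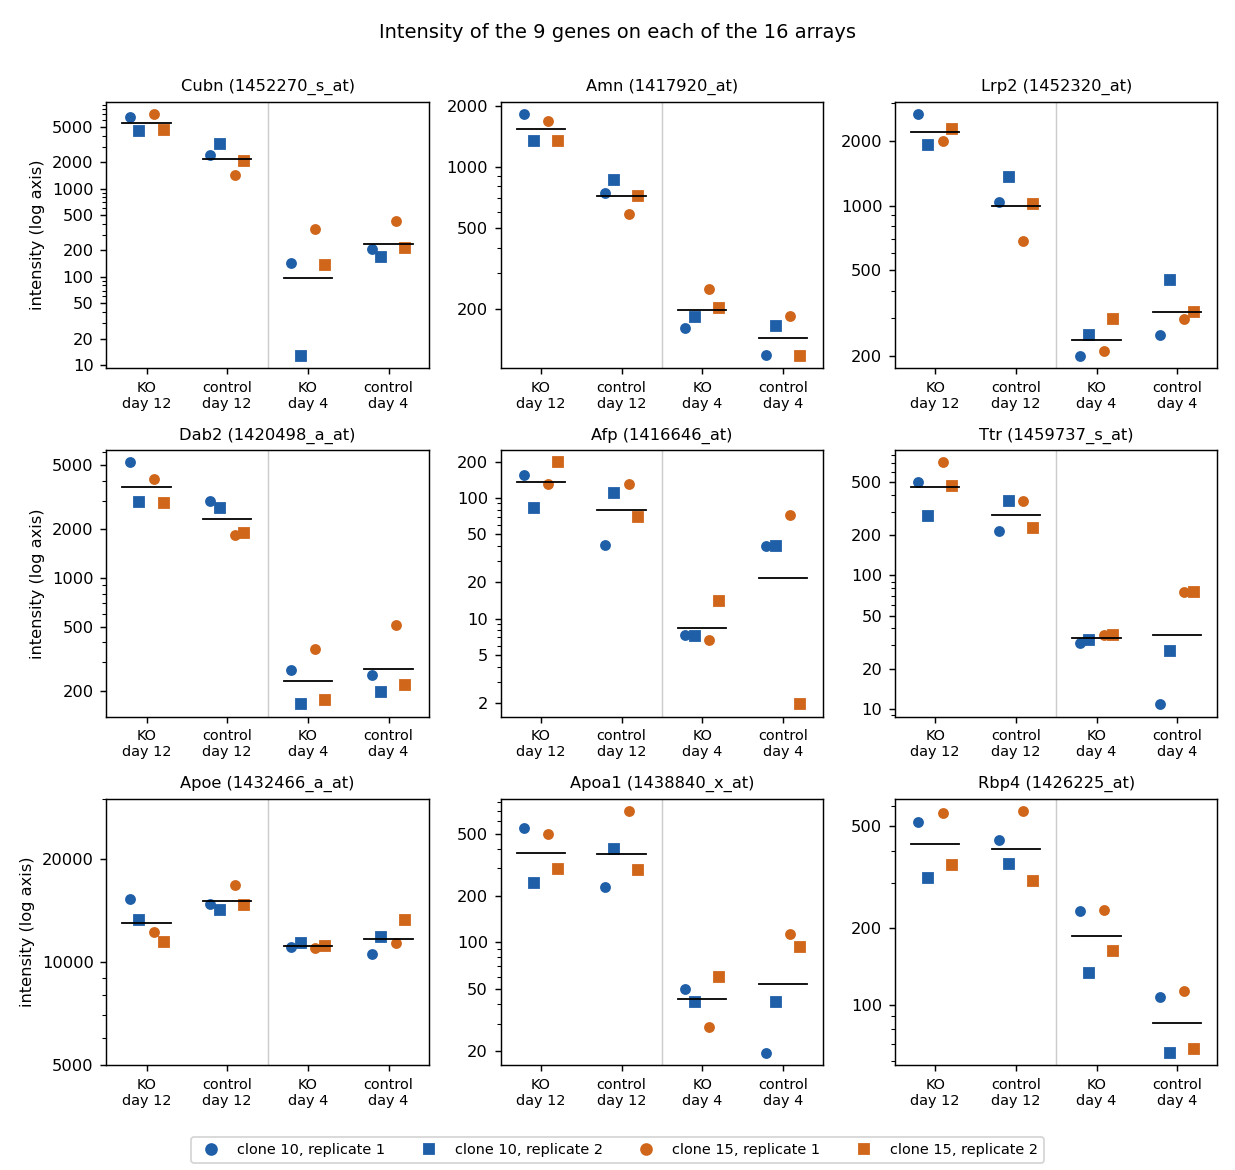
Intensity (log axis) of the 9 genes on each of the 16 arrays, by group, with colour for the clone, shape for the replicate number and a line at the mean of the log2 values. Cubn, Amn and Lrp2 have all 4 KO arrays above all 4 control arrays at day 12, and Rbp4 has this at day 4.

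In the values that follow, the 4 arrays of a group are clone 10 replicates 1 and 2, then clone 15 replicates 1 and 2. Cubn at probe set 1452270_s_at read 6461, 4505, 7066 and 4643 in KO arrays at day 12, against 2447, 3219.9, 1443 and 2063 in control arrays. At day 4 it read 143, 12.7, 347 and 138 in KO arrays, against 205, 170.4, 436 and 213 in control arrays. Every KO array was above every control array at day 12, while at day 4 the groups overlapped and each KO array was below its control of the same clone and replicate number. Over time Cubn rose in KO cells by 5.85 ± 0.73 on the log2 scale (SE; limma adjusted p = 0.0011), a 57.6-fold difference. That size leans on the array of clone 10 replicate 2 at day 4, which lies under the 25th percentile of intensity (28.3), and without it the fold was 29.7 (limma adjusted p = 0.000193). In control cells the difference of 3.21 ± 0.73 missed the threshold (limma adjusted p = 0.0595), although every array of day 12 was above every array of day 4.

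The Cubn difference between KO and control was 1.34 ± 0.73 at day 12 (limma adjusted p = 0.438) and -1.30 ± 0.73 at day 4 (limma adjusted p = 0.703), and neither passed. The second probe set of Cubn, 1426990_at, had a smaller spread at day 4, from 55.4 to 171 in KO and 81.6 to 215 in control arrays. Its KO difference at day 12 was also 1.34, with an SE of 0.38 (limma adjusted p = 0.150 over all probe sets). Its change over time passed in both, by 5.33 ± 0.38 in KO cells (limma adjusted p = 3.97e-05) and 3.52 ± 0.38 in control cells (limma adjusted p = 0.00143). The control call for Cubn thus depends on the probe set. It also passed at the first probe set without KO day 4 clone 10 replicate 2 (limma adjusted p = 0.00246) or clone 15 replicate 1 (0.0477), and with the mean of both sets (0.00907). Values under 28.3 raised to it (0.0136), a filter on dim probe sets (0.0251) and array weights (0.0344) made the call too. The call was not made with any other array left out (limma adjusted p up to 0.178) or with the random block of day and replicate number (0.229).

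Amn, the membrane partner of cubilin, read 1820.3, 1337, 1685 and 1338 in KO arrays at day 12, against 742, 866, 585 and 722 in control arrays. The day 4 values were 162, 181, 252 and 201 in KO arrays, against 118, 165, 183 and 117 in control arrays. Its level was thus highest in KO cells at day 12, then in control cells at day 12, with no overlap between these groups or with the arrays of day 4. At day 4 KO and control arrays overlapped, with all 4 pairs higher in KO by 0.14 to 0.78 and a log2 difference of 0.46 ± 0.20 (limma adjusted p = 0.548). At day 12 Amn was 2.12-fold higher in KO cells (log2 1.08 ± 0.20, limma adjusted p = 0.0115), with all 4 pairs higher by 0.63 to 1.53. The mean over pairs was 1.21 in clone 15 and 0.96 in clone 10, and 0.76 in replicate number 2 and 1.41 in number 1. Over time Amn rose 7.80-fold in KO cells (limma adjusted p = 1.6e-05) and 5.05-fold in control cells (limma adjusted p = 0.000164). Leaving out any 1 array ended none of these 3 calls.

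Lrp2, the giant receptor megalin, at probe set 1452320_at read 2657, 1915, 1994 and 2272 in KO arrays at day 12, against 1037, 1359, 686 and 1014 in control arrays. At day 4 the values were 201, 251, 212 and 299 in KO arrays, against 250.5, 451, 296 and 319.9 in control arrays. All KO arrays lay above all control arrays at day 12, whereas at day 4 all 4 pairs were lower in KO, with log2 differences of -0.84 to -0.10 (-0.44 ± 0.23, limma adjusted p = 0.661), and the groups overlapped. At day 12 Lrp2 was 2.20-fold higher in KO cells (log2 1.14 ± 0.23, limma adjusted p = 0.0175). The mean over pairs was 1.35 in clone 15 and 0.93 in clone 10, and 0.83 in replicate number 2 and 1.45 in number 1. This call was lost without KO day 12 clone 10 replicate 1 (limma adjusted p = 0.0619), without KO day 12 clone 15 replicate 2 (0.0530), and with the mean of all Lrp2 probe sets (0.0563). Over time Lrp2 rose 9.21-fold in KO cells (limma adjusted p = 1.6e-05) and 3.09-fold in control cells (limma adjusted p = 0.00477). The control call was also lost with the mean of all probe sets (0.0748).

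The 3 probe sets of Lrp2 did not behave alike. Set 1427133_s_at gave 1.29 ± 0.20 for KO against control at day 12 (limma adjusted p = 0.00791 over all probe sets) and 3.30 ± 0.20 over time in KO cells (limma adjusted p = 1.5e-05). Set 1445901_at stayed dim, with means of 66.1 ± 18.9 in KO and 43.9 ± 15.8 in control arrays at day 12, and of 92.2 ± 28.0 in KO and 46.1 ± 25.8 in control arrays at day 4 (SD, n = 4 arrays). None of its differences in these comparisons passed, and its change over time in KO cells ran the other way, at -0.47 ± 0.51.

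Dab2, the clathrin adaptor, rose with the receptors over time but was not called between KO and control. It read 5209, 2955, 4112 and 2911 in KO arrays at day 12, against 2992, 2717, 1858 and 1909 in control arrays. Dab2 at day 4 read 268, 165, 365 and 174 in KO arrays, against 251, 198, 509 and 217 in control arrays. The days were far apart and the KO and control arrays overlapped at each day. Over time Dab2 was 16.0-fold higher in KO cells (limma adjusted p = 7.6e-05) and 8.52-fold higher in control cells (limma adjusted p = 0.00111). At day 12 all 4 pairs were higher in KO, by 0.12 to 1.15, a log2 difference of 0.67 ± 0.35 (limma adjusted p = 0.41). With the 8 pairs of KO and control arrays as a block the SE was 0.17, and the limma adjusted p of 0.0574 still missed the threshold. The other 3 Dab2 probe sets gave 0.79 to 0.91 at day 12, also without a call.

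**Figure D2:**
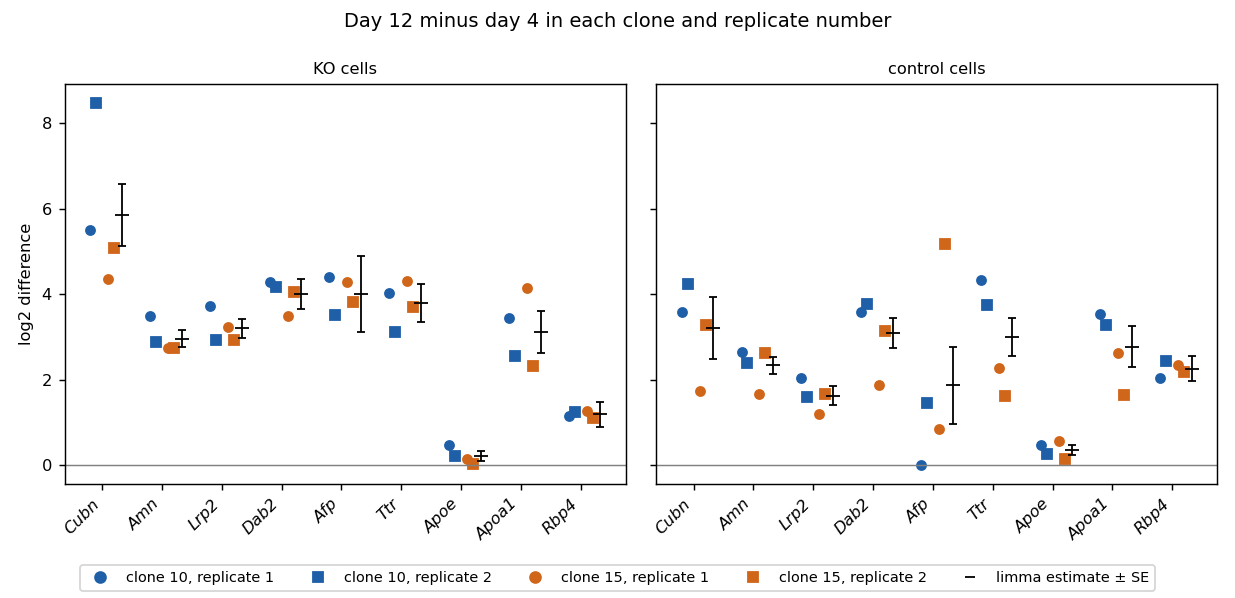
Log2 difference of day 12 minus day 4 for each gene, in KO cells (left) and control cells (right), with 1 point for each clone and replicate number and the limma estimate with its SE beside them. All points lie above 0, and the Rbp4 points lie between 1.11 and 1.27 in KO and between 2.03 and 2.45 in control cells.

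Among the carriers, Afp was the dimmest. At probe set 1416646_at it read 156, 82.0, 131 and 197 in KO arrays at day 12, against 40.7, 109, 129 and 70.0 in control arrays. At day 4 it read 7.40, 7.18, 6.68 and 13.9 in KO arrays, against 40.2, 40.1, 72.0 and 1.95 in control arrays. All 4 KO arrays of day 4 lie under the 25th percentile of intensity, so the 16.1-fold difference over time in KO cells (limma adjusted p = 0.0302) shrank to 4.76-fold with values under 28.3 raised to it. That call was lost when any 1 of the 8 KO arrays was left out (limma adjusted p 0.0518 to 0.0881), and with the random block (0.167). In control cells the days overlapped and the log2 difference was 1.87 ± 0.89 (limma adjusted p = 0.382). Against control cells, Afp in KO cells differed by 0.76 ± 0.89 at day 12 and -1.38 ± 0.89 at day 4, and neither passed (limma adjusted p = 0.774 and 0.778). The day 4 value passed without control clone 15 replicate 2, at -2.63 (limma adjusted p = 0.00949). With all arrays and values under 28.3 raised to it, the day 4 difference was -0.59 (limma adjusted p = 0.738).

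The other Afp probe sets split. Set 1436879_x_at rose over time in both KO cells (limma adjusted p = 0.00217) and control cells (limma adjusted p = 0.0095). All 8 of its day 4 arrays lie under 28.3, at 0.926 to 12.0 in KO and 1.16 to 3.96 in control arrays, so the size of the change is not known. With values under 28.3 raised to it, the set was 3.33-fold higher at day 12 in KO and 1.79-fold higher in control cells. Sets 1416645_a_at and 1436881_x_at had differences over time of 3.09 to 4.02 in KO and control cells, none past the threshold, and 3 or 4 of the 4 arrays at day 4 under 28.3 in each group. Set 1436880_at did not move with them, with means of 5.73 ± 0.147 in KO and 8.77 ± 3.95 in control arrays at day 12 (SD, n = 4 arrays).

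Ttr, the thyroid hormone carrier, read 505, 282, 708 and 467 in KO arrays at day 12, against 217, 365, 363 and 228 in control arrays. Ttr at day 4 read 30.9, 32.5, 36.0 and 35.7 in KO arrays, against 10.8, 27.1, 75.0 and 74.6 in control arrays. The KO arrays of day 4 lay close together, while the control arrays of day 4 fell apart by clone. Over time Ttr rose 13.8-fold in KO cells (limma adjusted p = 0.000738) and 7.97-fold in control cells (limma adjusted p = 0.00612), where the call was lost with the random block of day and replicate number (0.0726). KO and control cells differed by 0.71 ± 0.44 at day 12 (limma adjusted p = 0.507) and by -0.08 ± 0.44 at day 4 (limma adjusted p = 0.997), with overlapping arrays at both days. The 3 other Ttr probe sets rose over time in KO cells, by 2.86 to 3.63 with values under 28.3 raised to it. In control cells their differences on that scale were 2.07 to 2.77, and 1 of the 3 passed in the fit without that floor.

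Apoa1, the main protein of high-density lipoprotein, followed Ttr over time. At probe set 1438840_x_at it read 542, 241, 499.6 and 298 in KO arrays at day 12, against 227, 397, 703 and 292 in control arrays. Apoa1 at day 4 read 49.96, 41.0, 28.4 and 59.6 in KO arrays, against 19.4, 41.1, 114 and 93.1 in control arrays. It rose 8.66-fold in KO cells (limma adjusted p = 0.0043) and 6.84-fold in control cells (limma adjusted p = 0.0165), with no overlap between the days. The control call was lost without control day 4 clone 10 replicate 2 (limma adjusted p = 0.0550), control day 12 clone 10 replicate 2 (0.0652) or control day 12 clone 15 replicate 1 (0.0532), and with the random block (0.135). The levels in KO and control cells were close at day 12, a log2 difference of 0.02 ± 0.48, and overlapped at day 4, where it was -0.32 ± 0.48. All 4 probe sets of Apoa1 rose over time in both KO and control cells, by 2.64 to 3.64 with values under 28.3 raised to it.

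Apoe, a lipid carrier of many tissues, was bright on every array. It read 15254, 13285, 12213 and 11428 in KO arrays at day 12, against 14813, 14179, 16832 and 14654 in control arrays. At day 4 it read 11029, 11330.4, 10955 and 11163 in KO arrays, against 10565, 11795, 11357 and 13215 in control arrays. All arrays of day 12 lay above those of day 4 within KO and within control cells, but the log2 differences of 0.22 ± 0.12 and 0.37 ± 0.12 did not pass (limma adjusted p = 0.392 in KO and 0.165 in control cells). KO cells differed from control cells by -0.22 ± 0.12 at day 12 (limma adjusted p = 0.418) and by -0.07 ± 0.12 at day 4 (limma adjusted p = 0.98).

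Rbp4, the retinol carrier of blood, was the only one of the 9 with every KO array above every control array at day 4. It read 520.1, 314, 564 and 351 in KO arrays at day 12, against 439, 354, 574 and 304 in control arrays. Rbp4 at day 4 read 233, 133, 234 and 162 in KO arrays, against 107, 64.8, 113 and 66.9 in control arrays. At day 12 the KO and control arrays overlapped. The day 4 difference was 1.12 ± 0.29 on the log2 scale, 2.18-fold, with all 4 pairs higher by 1.04 to 1.28, and its limma adjusted p of 0.149 missed the threshold. KO and control arrays of the same day, clone and replicate number deviated together, and with these 8 pairs as a block the SE fell to 0.09 and the call was made (limma adjusted p = 0.00403). With that block 178 genes passed at day 4 in place of 114, and 1479 at day 12 in place of 563. At day 12 the Rbp4 difference was 0.06 ± 0.29 (limma adjusted p = 0.959).

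Over time Rbp4 rose 4.77-fold in control cells (limma adjusted p = 0.00317). In KO cells it rose 2.29-fold (limma adjusted p = 0.0437). The KO call was kept only when one of the 4 control arrays of clone 15 was the array left out, and was lost without any of the 12 others (limma adjusted p 0.0504 to 0.141). The 4 differences over time between arrays of the same clone and replicate number were 1.11 to 1.27 in KO and 2.03 to 2.45 in control cells.

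**Figure D3:**
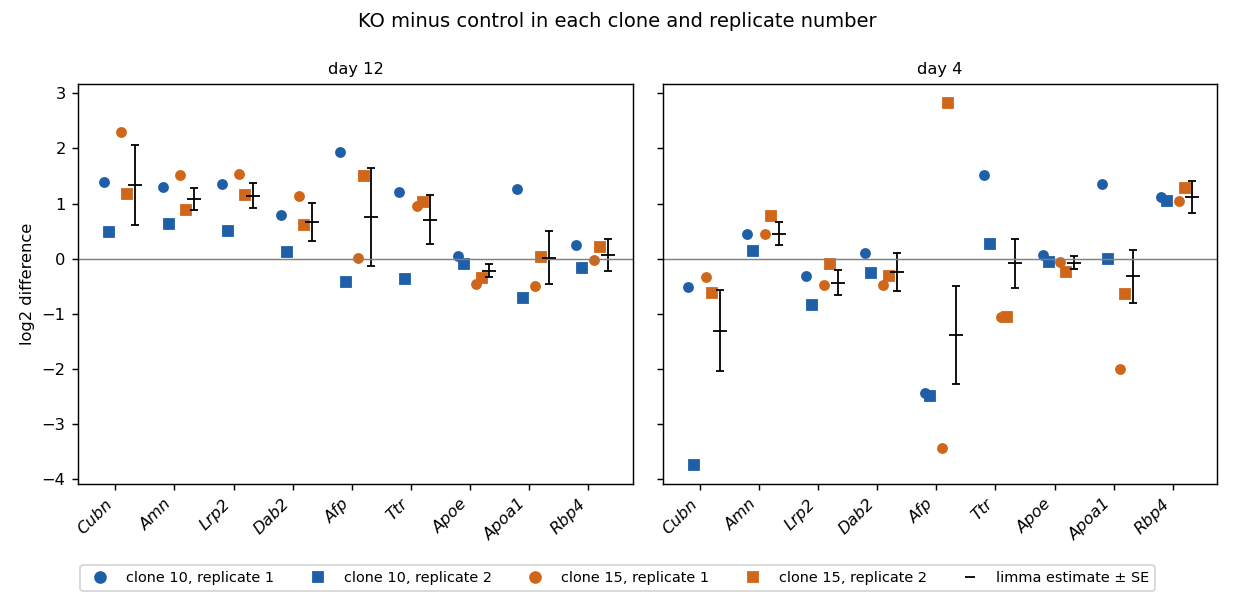
Log2 difference of KO minus control for each gene at day 12 (left) and day 4 (right), with 1 point for each clone and replicate number and the limma estimate with its SE beside them. Cubn, Amn, Lrp2 and Dab2 have all 4 points above 0 at day 12. At day 4 Cubn and Lrp2 have all 4 below 0, Amn has all 4 above 0 and Rbp4 has all 4 above 1.

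Whether the KO difference itself changed between the days was tested in the same fit, and 0 of the 9 passed, as did 0% of all genes. At an unadjusted p under 0.05 there were 4 of the 9, against 4.57% of all genes. These were Lrp2, whose KO difference at day 12 exceeded that at day 4 by 1.57 ± 0.32 (limma adjusted p = 0.816), Cubn by 2.64 ± 1.03 (limma adjusted p = 0.9999), Amn by 0.63 ± 0.28 (limma adjusted p = 0.9999), and Rbp4, where the change was -1.06 ± 0.41 (limma adjusted p = 0.9999). With the 8 pairs as a block the limma adjusted p was 0.295 for Lrp2, 0.43 for Cubn, 0.481 for Amn and 0.181 for Rbp4. So a change in the KO difference between the days, in either direction, was not shown for any of them.

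No member passed a test of a difference between the clones. In control cells 0 of the 9 differed between clone 15 and clone 10, as did 0.066% of all genes, with 2 of the 9 at an unadjusted p under 0.05 against 5.21%. These were Ttr, higher in clone 15 by 1.08 ± 0.33 (limma adjusted p = 0.661), and Apoa1, by 1.23 ± 0.43 (limma adjusted p = 0.792). Ttr moved over time by a mean of 1.94 in control cells of clone 15 and 4.04 in those of clone 10, a difference of -2.10 ± 0.66 (limma adjusted p = 0.9999). For KO against control at day 4 the means of Ttr were -1.06 in clone 15 and 0.89 in clone 10, and those of Apoa1 were -1.32 and 0.68. The Ttr values of both control arrays of clone 10 at day 4, and the Apoa1 value of 1 of them, lie under 28.3. The sizes in clone 10 and the clone differences of Ttr and Apoa1 are thus not exact. The clone tests of the KO difference called 0 of the 9 and 0% of all genes at either day, and so did that of the control change over time. At an unadjusted p under 0.05 the KO difference of 2 of the 9, Ttr and Apoa1, depended on clone at day 4, against 3.13% of all genes, and that of 0 of the 9 at day 12, against 2.9%. The control change over time of 1 of the 9, Ttr, was reached, against 3.22%.

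Replicate number went with the level of many genes at day 4, and Rbp4 and Dab2 were among them. Arrays numbered 2 had lower Rbp4 than arrays numbered 1, with log2 differences of -0.70 ± 0.10 at day 4 (limma adjusted p = 0.00181) and -0.66 ± 0.10 at day 12 (limma adjusted p = 0.0224), averaged over KO and control. At day 4 Rbp4 read 133 and 162 in KO arrays numbered 2, against 233 and 234 in those numbered 1, and 64.8 and 66.9 in control arrays numbered 2, against 107 and 113 in those numbered 1. Dab2 was also lower in arrays numbered 2 at day 4, by -0.84 ± 0.26 on the log2 scale (limma adjusted p = 0.0457). At day 4, 2 of the 9 were lower in number 2 where 17.1% of all genes were, and at day 12 it was 1 of the 9, where 2.51% were. None was higher, where 9.89% of all genes were at day 4 and 1.7% at day 12. Other values moved with replicate number at day 4. The feeder markers summed to 1974 and 1564 in KO arrays numbered 2, against 3275 and 3165 in those numbered 1, and to 1804 and 1432 in control arrays numbered 2, against 2538 and 2464 in those numbered 1. Of the feeder markers 5 of 13, and of the parietal endoderm markers 7 of 14, were lower in number 2. The log2 ratio of 3′ to 5′ signal of pyruvate carboxylase, a measure of RNA quality, was 0.16 to 0.87 in number 2 and 1.27 to 1.84 in number 1. Other control transcripts had smaller or no gaps at day 4. The ratio of Gapdh was -0.37 to -0.29 in number 2 and -0.28 to -0.21 in number 1. That of actin was 0.43 to 0.47 in number 2 and 0.46 to 0.59 in number 1, with overlap. The ratios of transferrin receptor also overlapped, reaching 1.12 in number 2 and 1.48 in number 1. The part of the feeder markers, parietal endoderm markers and RNA quality in the Rbp4 and Dab2 differences was not tested.

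The Dab2 call was lost when any of 13 arrays was left out, and was kept without control day 4 clone 10 replicate 1, control day 12 clone 10 replicate 1 or control day 12 clone 15 replicate 1. The Rbp4 call at day 12 was lost without KO day 12 clone 10 replicate 1 or 2, KO day 12 clone 15 replicate 2, control day 12 clone 10 replicate 2, or control day 12 clone 15 replicate 1 or 2 (limma adjusted p 0.0570 to 0.0866).

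The KO differences of the members did not pass a test by replicate number at day 12 or day 4, where 0.0055% and 0% of all genes did. The change over time in control cells did not either, where 9.47% of all genes did. At day 12 the KO difference was smaller or more negative in number 2 than in number 1 for all 9 genes, with a median change of -0.62 against 0.01 over all genes. For Cubn the mean was 0.83 in number 2 and 1.85 in number 1, and for Dab2 0.36 in number 2 and 0.97 in number 1. At an unadjusted p under 0.05 none of the 9 was reached in these 3 tests, where 4.5%, 5.12% and 25.9% of all genes were. Arrays with the same replicate number at different days did not deviate together, so the numbers join arrays within a day only. With the random block of day and replicate number, the changes over time of Amn, Lrp2, Rbp4 and Dab2 passed in both KO and control cells.

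**Figure D4:**
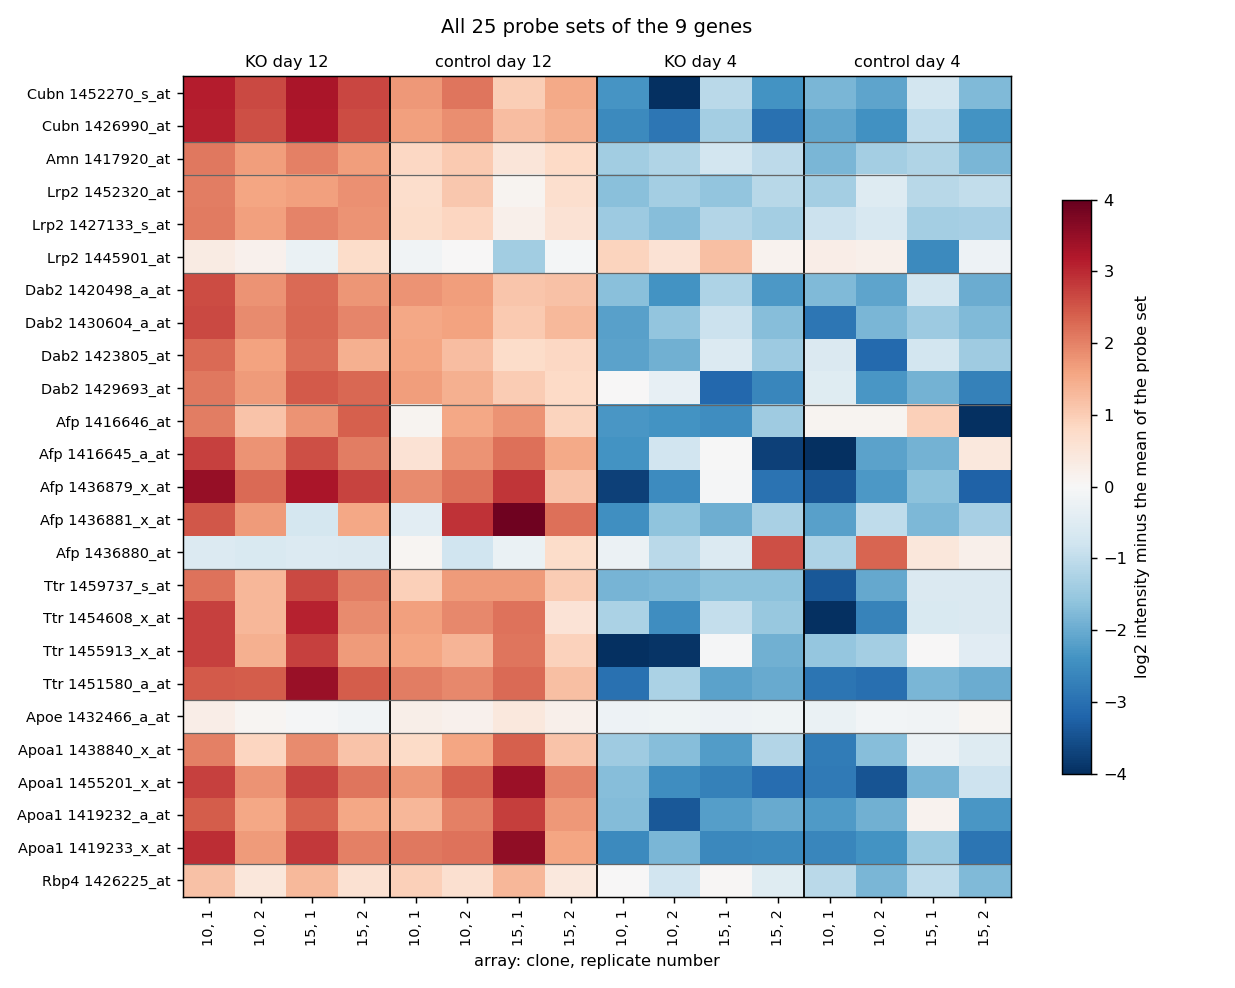
Log2 intensity minus the mean of the probe set for all 25 probe sets (down the page) on the 16 arrays (across, by group), with colours that saturate at 4 above or below. Most probe sets are red at day 12 and blue at day 4, and Lrp2 1445901_at, Afp 1436880_at and Apoe 1432466_a_at are not.

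Other genes of the same layers give the setting of these changes. Of 16 measured regulators of extraembryonic endoderm, 8 rose over time in KO cells, with a median log2 change of 1.99 against 0.02 over all genes. In control cells 3 of 16 rose, with a median of 1.25. Sox17, a transcription factor of primitive endoderm, rose by 4.34 ± 0.56 in KO cells (limma adjusted p = 0.00147) and by 2.67 ± 0.56 in control cells (limma adjusted p = 0.0458). Gata6, which starts the primitive endoderm programme, averaged 760 in KO and 382 in control arrays at day 12 and was the 1 regulator higher in KO at that day (0.98 ± 0.24, limma adjusted p = 0.0483). Pdgfra, a receptor of primitive endoderm, rose by 4.16 ± 0.46 in KO cells (limma adjusted p = 0.000602). In control arrays Pdgfra averaged 211 at day 12 and 62.4 at day 4. Some other regulators of the list moved less. In KO cells Hnf4a averaged 94.2 at day 12 and 69.5 at day 4, Hhex 389 and 367, and Eomes 185 and 167. Lefty1 averaged 3210 at day 12 and 4655 at day 4. Cer1 (17.9 and 14.6) and Lhx1 (29.1 and 24.7) lay near or under 28.3. Of the 16, 0 were called lower over time in KO cells. At day 4, 0 of 16 regulators passed between KO and control, also at an unadjusted p under 0.05, where 8.54% of all genes passed. At day 12, 6 of 16 were reached at that unadjusted level, against 14.8% of all genes.

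Markers of parietal endoderm rose as well. Of 14 measured, 7 rose over time in KO and 6 in control cells, among them the basement membrane genes Col4a1 (3.47 ± 0.47 in KO and 3.34 ± 0.47 in control cells) and Lama1 (2.86 ± 0.39 in KO and 2.67 ± 0.39 in control cells). Their summed intensity was 42992 to 57114 in KO and 32815 to 51088 in control arrays at day 12, and 16659.7 to 21266 in KO and 15813 to 19864 in control arrays at day 4. Between KO and control 0 of 14 passed at day 12, with 1 at an unadjusted p under 0.05 and a median of 0.32. Their part in the changes of Dab2 and the other genes was not tested.

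Markers of other cell types also moved with the day or with KO. Of 10 measured trophoblast markers, 3 rose and 1 fell over time in KO cells and 2 rose and 1 fell in control cells, among them Krt8 and Krt18, keratins that endoderm also makes, which rose in both. Their summed intensity was 7560.0 to 11866 in KO and 6994 to 9407 in control arrays at day 12, and 5136 to 5673 in KO and 4289 to 4631 in control arrays at day 4. At day 12, 2 of 10 were called higher in KO than in control cells. Plac1 averaged 179.9 in KO and 65.0 in control arrays (1.64 ± 0.35, limma adjusted p = 0.0241). The trophoblast regulator Cdx2 averaged 46.7 in KO and 7.34 in control arrays (limma adjusted p = 0.0103). The control mean lies under 28.3, so the size of this difference is not known. At day 4 Cdx2 averaged 30.5 in KO and 42.5 in control arrays, so its control level was the lower one at day 12. Of 10 measured markers of definitive endoderm, Foxa1, a factor of many endoderm derivatives, was the 1 called higher in KO at day 12, with means of 63.9 in KO and 8.69 in control arrays (limma adjusted p = 0.0348). That control mean is also under 28.3. At day 4 Foxa1 averaged 72.7 in KO and 29.9 in control arrays, so its KO level was not higher at day 12 than at day 4. Of 12 ES cell markers, Utf1 was the 1 that differed at day 12, lower in KO cells (-0.82 ± 0.18, limma adjusted p = 0.0256), with 5 at an unadjusted p under 0.05. The part of these cell types in the KO differences of Amn and Lrp2 was not tested.

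Of 20 measured partners of the receptors in endocytosis, 4 rose over time in KO cells, with a median log2 change of 0.20, and 0 in control cells, where 5 were reached at an unadjusted p under 0.05 and the median was 0.31. Lrpap1, the chaperone that folds megalin and its relatives, rose by 1.39 ± 0.20 in KO cells (limma adjusted p = 0.00211), and Myo6, a motor that carries endocytic vesicles, by 1.15 ± 0.29 (limma adjusted p = 0.0495). The clathrin adaptor subunit Ap2m1 (0.81 ± 0.19) and clathrin heavy chain Cltc (0.54 ± 0.13) were the others. Of 12 other members of the LDL receptor family, 0 passed in the changes over time or in KO against control at either day, with at most 2 at an unadjusted p under 0.05. Whether the change over time differed between KO and control cells was tested for both lists. It passed for 0 of the 20 partners and 0 of the 12 family members, as for 0% of all genes. At an unadjusted p under 0.05 it was 0 in each list, against 4.57% of all genes.

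Of 11 other secreted proteins of visceral endoderm, 2 rose over time in KO and 1 in control cells, and 0 passed between KO and control at either day, with 2 at an unadjusted p under 0.05 at each. Spink1, a protease inhibitor, rose by 2.28 ± 0.24 in KO cells (limma adjusted p = 0.000415) and by 2.82 ± 0.24 in control cells (limma adjusted p = 0.000164), and Apob, the core of low-density lipoprotein, rose by 1.58 ± 0.33 in KO cells (limma adjusted p = 0.0239). Of 16 genes of lipoprotein and retinoid handling, 2 rose over time in KO cells and 2 rose and 1 fell in control cells. Between KO and control, 3 were higher in KO at day 12 and 1 at day 4, with 8 and 3 at an unadjusted p under 0.05. Mttp, which loads lipid onto Apob, rose by 1.77 ± 0.17 in KO and 1.23 ± 0.17 in control cells, and was higher in KO than in control cells at day 12 (0.73 ± 0.17, limma adjusted p = 0.0363). Crabp1, a binding protein for retinoic acid, was higher in KO cells at day 12 (1.71 ± 0.16, limma adjusted p = 7.2e-05) and at day 4 (1.58 ± 0.16, limma adjusted p = 0.0003). Abca1, an exporter of cholesterol to Apoa1, was higher in KO cells at day 12 (0.63 ± 0.13, limma adjusted p = 0.02) and fell over time in control cells (-0.67 ± 0.13, limma adjusted p = 0.0303). Cyp26a1, which breaks down retinoic acid, rose over time by 3.23 ± 0.60 in KO and 3.64 ± 0.60 in control cells.

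The members tracked each other across the 16 arrays. As a description over arrays that share days and normalization, the Pearson correlation of log2 values was 0.97 for Ttr with Apoa1, 0.96 for Amn with Dab2, 0.95 for Cubn with Dab2 and 0.95 for Amn with Lrp2, and it was lowest for Afp with Apoe, at 0.42. Of 13635 other genes in the upper part of the intensity range, the 5 most like the mean of the members were Ctsh (0.987), Srgn (0.987), Lgmn (0.982), Car4 (0.976) and Amot (0.974). Ctsh and Lgmn encode lysosomal proteases. Ctsh averaged 3239 in KO and 1921 in control arrays at day 12, and 145 in KO and 149 in control arrays at day 4.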

How the data were processed

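Expression was measured on 16 Affymetrix mouse 430 2.0 arrays. The authors deposited 1 table of intensity values on a linear scale, made with RMA in Affymetrix Expression Console per the submitters' processing notes. All 16 columns hold the same sorted values, so the arrays were quantile-normalized together, and differences between arrays in the total of all transcripts are removed. A log2 scale had been planned for the deposited values. They were linear, so log2 was taken with no offset. Each gene is represented by its probe set with the highest mean among sets annotated to 1 gene alone, which left 18193 genes. With both Rybp probe sets, 18195 were tested with limma 3.58.1 in R 4.3.3, on the 4 groups with clone as a covariate, and p-values were adjusted by Benjamini-Hochberg with a threshold of 0.05. Differences between the clones, and those between replicate numbers, came from fits with the matching terms. Folds are 2 to the power of the log2 difference. Annotation of probe sets came from the platform table. The scripts' fit was checked on simulated data in which arrays varied independently. That check does not cover arrays that deviate together.

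Replicate numbers in the labels were tested as pairs. Deviations were taken from the mean of the 2 arrays of a clone and group, so each correlation over genes is one of replicate differences. KO and control arrays of a day, clone and number correlated at 0.44 and 0.41 at day 4 and 0.20 and 0.15 at day 12. These pairs were therefore used as a block. Arrays of clone 15 and clone 10 with the same day, state and number correlated alike, at 0.43 and 0.40 at day 4 and 0.16 and 0.21 at day 12. A number thus joins 4 arrays of a day across both clones, which the block of 8 pairs does not model and the random block of day and replicate number does. Across days the correlations were -0.08 to 0.08. The alternatives were a floor at the 25th percentile, a filter on dim probe sets, the mean of a gene's probe sets, every probe set on its own, array weights, blocks, each clone or replicate number alone, and each array left out. The 9 genes and the other lists were chosen with earlier results of these data known. From each other list up to 4 genes past the threshold were named, by size of change, and 5 genes by their correlation with the mean of the 9. Array number limits the precision. No per-array depth applies.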

Additional observations from a re-analysis of the deposited data

Results flagged for a closer look

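In 2 of the 36 groups of 4 arrays, 1 array lay far from the other 3 by Dixon's gap criterion, which chance alone meets in about 1 in 20 groups. Both concern Afp at day 4. KO clone 15 replicate 2 read 13.9, against 6.68 to 7.40 in the other KO arrays, all under the 25th percentile of intensity (28.3). Control clone 15 replicate 2 read 1.95, against 40.1 to 72.0 in the other control arrays.

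The KO differences of Cubn and Lrp2 had opposite directions at the 2 days in every pair of the same clone and replicate number: all 4 were above 0 at day 12 and all 4 below 0 at day 4. The change in the KO difference, day 12 minus day 4, was 2.64 for Cubn (limma adjusted p = 0.9999) and 1.57 for Lrp2 (limma adjusted p = 0.816), so it was tested and did not pass.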

How the results depend on the processing

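Over 63 results of single genes and 1620 alternative values, 118 lost and 13 gained a call, and no called value reversed. For KO against control at day 12, 2 genes passed, and 1 with the mean of all probe sets, 1 to 2 with 1 array left out, and 0 within clone 10, clone 15, replicate number 1 or number 2, where few arrays remain. At day 4, 0 passed, and 1 (Rbp4) with the replicate block of 8 pairs, the block of clone and replicate number or the random block, and 0 to 1 with 1 array left out. The block of 8 pairs changed no other call of a gene. For the change over time 8 passed in KO and 6 in control cells, with 6 to 8 in KO and 5 to 7 in control cells when 1 array was left out, 7 in KO and 4 in control cells with the random block, and 0 for each within 1 clone or 1 replicate number. For replicate number 2 passed at day 4, against 1 with the mean of probe sets or every probe set tested and 1 to 2 with 1 array left out. At day 12, 1 passed, and 0 to 1 with 1 array left out.

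Over all genes, 114 passed between KO and control at day 4, against 216 with a floor at the 25th percentile, 74 with array weights, 178 with 8 pairs, 307 with the random block, 66 to 111 without 1 array and 5 within clone 10. At day 12 the 563 genes became 909 with the floor, 978 with weights, 1479 with 8 pairs, 1469 with the random block, 287 to 536 without 1 array and 37 within clone 10. Over time, the 595 genes in KO cells became 1094 with the floor, 1018 with the dim filter, 355 with the mean of probe sets, 242 with the random block, 239 to 593 without 1 array and 1 within clone 10. The 181 genes in control cells became 490 with the floor, 423 with the dim filter, 88 with the mean, 346 with clone and replicate number as a block, 56 with the random block and 94 to 167 without 1 array. For the change in the KO difference the 0 genes became 1 with the mean or 8 pairs. For replicate number the 4909 genes at day 4 became 9000 with every probe set tested, and the 766 at day 12 became 1659 with the floor, 1834 with the dim filter, 133 with the mean and 4 to 627 without 1 array. The other counts within 1 clone or number were 0. The causes were not tested.

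Cubn, Afp, Ttr and Apoa1 lie near or under the 25th percentile on some arrays of day 4. The median SD of log2 values within a clone and group is 0.67 to 1.19 at the lowest levels, against 0.19 at the highest. The folds over time of Cubn, Afp, Ttr and Apoa1 are therefore less exact than those of Amn, Lrp2 and Dab2.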

Other observations

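Among the genes whose log2 values followed the mean of the 9 most closely, the mean levels were highest in KO arrays at day 12. Of the 9 themselves, Apoe and Apoa1 averaged higher in control than in KO arrays at day 12. Srgn, a proteoglycan of secretory granules, averaged 9502 in KO and 4004 in control arrays at day 12, and 326 in KO and 449 in control arrays at day 4. Lgmn, a lysosomal protease, averaged 5870 in KO and 3848 in control arrays at day 12, and 782 in KO and 751 in control arrays at day 4. Car4, a membrane carbonic anhydrase, averaged 2407 in KO and 1979.7 in control arrays at day 12, and 490.3 in KO and 508 in control arrays at day 4. Amot, an adaptor of cell junctions, averaged 1692 in KO and 1102 in control arrays at day 12, and 254 in KO and 209.5 in control arrays at day 4. They were chosen for this likeness, so their levels are a description.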
